A study of Mus musculus with 22 samples.

Results

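The 5 regions of the heavy-chain V segment described here are frameworks 1 to 3 (FWR1, FWR2, FWR3) and the complementarity-determining regions 1 and 2 (CDR1, CDR2), as the deposited bulk table delimits them. All 5 were read in 16 bulk immunoglobulin libraries of the 22 samples in the series. Of 8520 deposited sequences, 8134 had an in-frame CDR3 and a V alignment with no gap, and these were used. A replacement is a codon whose residue differed from the germline codon, and a silent change is a base that differed in a codon with an unchanged residue. Over all sequences the 5 regions held 7799 replacements and 2775 silent base changes.

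The libraries came from spleen germinal center B cells of male C57BL/6 mice aged 8 weeks. Per the series' design text the mice were immunized with OVA (ovalbumin) in alum with LPS (lipopolysaccharide), and OVA-binding cells were sorted for the bulk libraries. The sample titles give day 7 or day 13 after immunization and a letter, n or p, whose meaning the labels do not state, with 4 libraries for each day and letter. All 4 groups share strain, sex, age, antigen and adjuvant, and no group is unimmunized. Nothing in the labels ties the replicates to separate mice, and a p-value here reflects the spread among these libraries, which may be technical. The bulk table holds heavy-chain sequences alone, so the cell type label was not checked against marker genes.

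In a germinal center, activation-induced deaminase (AID) changes bases in the V segments of dividing B cells, and cells whose receptors bind antigen well are favoured for survival. The CDRs form the loops that contact antigen, while the frameworks form the scaffold that holds the domain together. A silent change leaves the protein as it was, so silent rates are commonly set beside replacement rates when regions are compared.

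The germline codons behind several of the replacements described below are printed first, since 1 codon recurs in them. Each line gives a stretch of the germline V segment as the deposited alignment has it, 5′ to 3′, with codons counted from 1 at the first codon of the V segment and the codon that was replaced in capitals.
IGHV5-6 CDR1, codons 26 to 33: ggattcactttcagtAGCtatggc
IGHV2-3 CDR1, codons 26 to 33: gggttctcattaaccAGCtatggt
IGHV2-2 CDR1, codons 26 to 33: ggtttctcattaactAGCtatggt
IGHV1-64 CDR1, codons 26 to 33: ggctacactttcaccAGCtactgg
IGHV8-12 CDR1, codons 26 to 35: gggttttcactgAGCacttctggtatgggt
IGHV2-3 CDR2, codons 51 to 57: atatggggtgacgggAGCaca
IGHV5-4 CDR2, codons 51 to 58: attagtgatggtggtAGTtacacc
IGHV1-26 CDR2, codons 51 to 58: attaatcctaacaatggtGGTact
IGHV8-12 FWR2, codons 36 to 40: gtgAGCtggattcgt
IGHV1-26 FWR3, codons 59 to 62: AGCtacaaccag
IGHV1-64 FWR3, codons 63 to 69: aagttcaagAGCaaggccaca
In 9 of these stretches the capitals spell the serine codon AGC, which in CDR1 of IGHV5-6, IGHV2-3, IGHV2-2 and IGHV1-64 is followed by t and so lies in the motif AGCT. The genes lie in the heavy-chain locus on mouse chromosome 12. In RefSeq's GRCm38.p6 annotation IGHV5-6 is at chr12:113625508-113625801, IGHV2-3 at chr12:113611184-113611476, IGHV2-2 at chr12:113588267-113588700, IGHV1-64 at chr12:115507587-115507977, IGHV8-12 at chr12:115647945-115648245, IGHV5-4 at chr12:113597448-113597741 and IGHV1-26 at chr12:114788372-114788665. All stretches are coding sequence of the V segments.

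Sequences were first grouped into rearrangements, each a distinct combination of V gene, J gene and CDR3 bases, and every rearrangement was given the same weight. The libraries held 178 to 609 rearrangements each, 5480 in all, from 93 V genes, and between 28.2% and 62.1% of a library's rearrangements held a sequence with no change in the 5 regions. As a check on errors of amplification and sequencing, mismatches were counted in the first 10 bases of the constant region, outside the V segment. There were 4 in 80740 bases, or 0.00495 per 100 bases, against 0.483 per 100 bases of V alignment. Only the 8074 sequences whose next 10 bases matched a frequent stretch of these data exactly were counted, so the value may be too low.

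Several libraries stood apart in the rearrangements they shared between days. The library p day 13 replicate 2 shared 165 of its 272 rearrangements with p day 7 replicate 2, and 161 of these had an identical V segment in both. In total 192 of its rearrangements (70.6%) were also seen in some day 7 library. The other day 13 libraries had between 12.8% and 30.5% of rearrangements in common with day 7. Among the day 7 libraries, 48.4% of the rearrangements of p day 7 replicate 2, 33.0% of those of n day 7 replicate 1 and 16.9% of those of p day 7 replicate 4 were also seen at day 13, against 0.824% to 8.49% in the other 5. The library n day 7 replicate 1 shared between 15 and 32 rearrangements with each of the 8 day 13 libraries. In all, 434 distinct rearrangements were seen on both days. How sequences came to be shared between days was not tested. Several of the comparisons of days and of letters are therefore also given without these rearrangements.

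Replacements were more frequent in the CDRs than in the frameworks in every library. The mean replacement rate was 2.70 per 100 codons in CDR1 and CDR2 against 0.996 in frameworks 1 to 3, a difference of 1.70 ± 0.79 (SD over 16 libraries). The CDR rate was higher in 16 of 16 libraries, by 1.97 to 3.20 times. A two-sided permutation test by sign flips of the within-library differences gave p = 3.05e-05, the smallest it can give for 16 libraries. After Benjamini-Hochberg adjustment over 3 tests it was 4.58e-05. That test takes the libraries as independent, though n and p libraries of the same day and number shared 4 to 48 rearrangements. With the n and p libraries of a number averaged, the permutation p was 0.00781, the smallest for 8 units.

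Silent changes differed far less between the regions. The mean silent rate was 0.488 per 100 codons in the CDRs and 0.454 in the frameworks, a difference of 0.034 ± 0.061 that was positive in 10 of 16 libraries (permutation test, adjusted p = 0.0425). That call was lost when every sequence weighed 1 (difference 0.017, permutation p = 0.148), with rearrangements of at least 2 sequences (difference 0.064, permutation p = 0.24), and without any one of 7 libraries: n day 7 replicate 4, n day 13 replicates 1 and 3, p day 7 replicate 1, and p day 13 replicates 2, 3 and 4. Per 100 silent sites, which allows for the bases at which a germline codon can change silently, the difference was 0.0981 and passed the test (permutation test, adjusted p = 0.000275), with pooled rates of 0.667 in the CDRs and 0.581 in the frameworks.

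**Figure D1:**
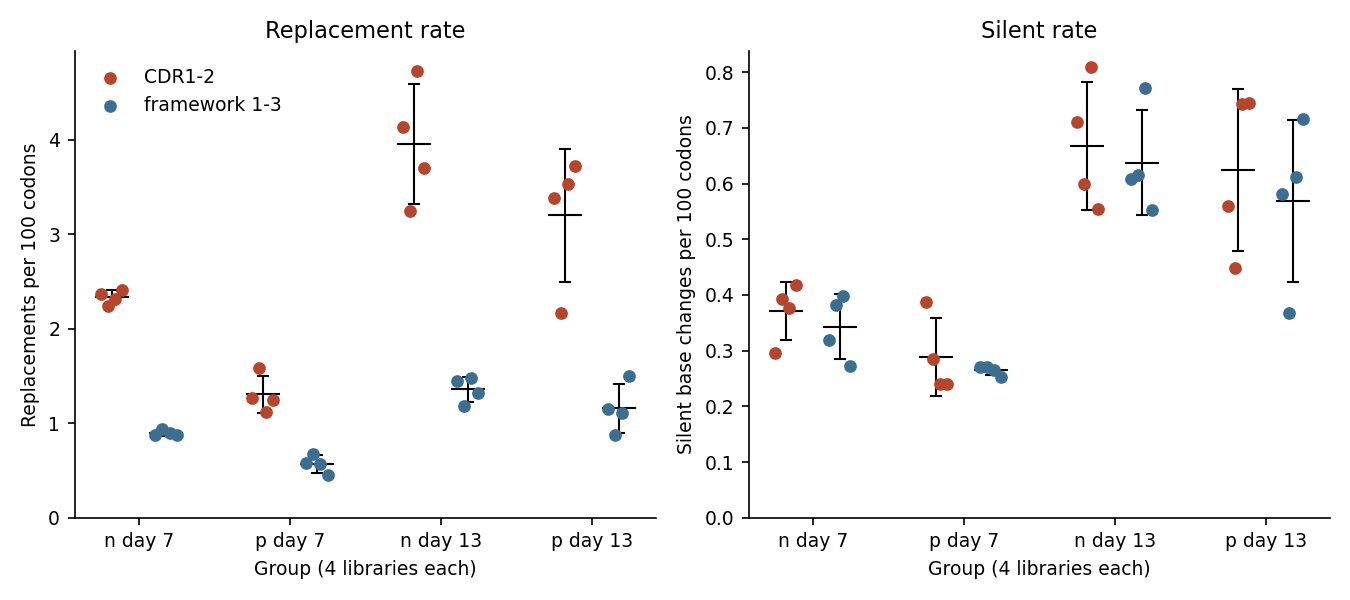
Replacement rate (left) and silent rate (right) per 100 codons in CDR1-2 and framework 1-3. Each point is 1 library, with the mean and SD of the 4 libraries of a group. CDR replacement rates lie above framework rates in every group, while the silent rates of the CDRs and frameworks overlap.

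Put as a share, replacements made up 84.3% of CDR changes and 69.0% of framework changes, a difference of 15.4 percentage points that was positive in 16 of 16 libraries (adjusted p = 4.58e-05, permutation test). If every single base change of the germline codons were equally likely and changes to stop codons are left out, 78.3% of CDR changes and 76.8% of framework changes would be replacements. The mean observed share therefore lay above this codon value in the CDRs and below it in the frameworks. In p day 7 replicate 1 the CDR share, 76.6%, lay below that library's codon value of 78.1%. That calculation takes no account of which bases AID and its repair partners change most.

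The 5 regions kept nearly the same order in all libraries. Both CDRs lay above all 3 frameworks in 16 of 16 libraries, and FWR3 lay above FWR2 in 15. FWR1 had the lowest replacement rate of the 5 in 16 of 16 libraries, and CDR2 exceeded CDR1 in 16 of 16. Pooled over libraries, the replacement rate per 100 codons was 0.537 in FWR1, 2.08 in CDR1, 0.930 in FWR2, 2.74 in CDR2 and 1.13 in FWR3. The silent rates spanned only 0.379 (FWR1) to 0.440 (CDR1).

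The ratio of replacement to silent changes separated the regions in the same way. It was 4.73 in CDR1 and 6.37 in CDR2, where the germline codons give 3.62 and 3.57. It was 1.42 in FWR1, 2.40 in FWR2 and 2.64 in FWR3, where the codons give 2.64, 3.84 and 3.56. All 3 frameworks were thus below the codon value and both CDRs above it. An average rearrangement covered 22.6 codons of FWR1, 7.89 of CDR1, 17.0 of FWR2, 7.94 of CDR2 and 38.0 of FWR3.

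**Figure D2:**
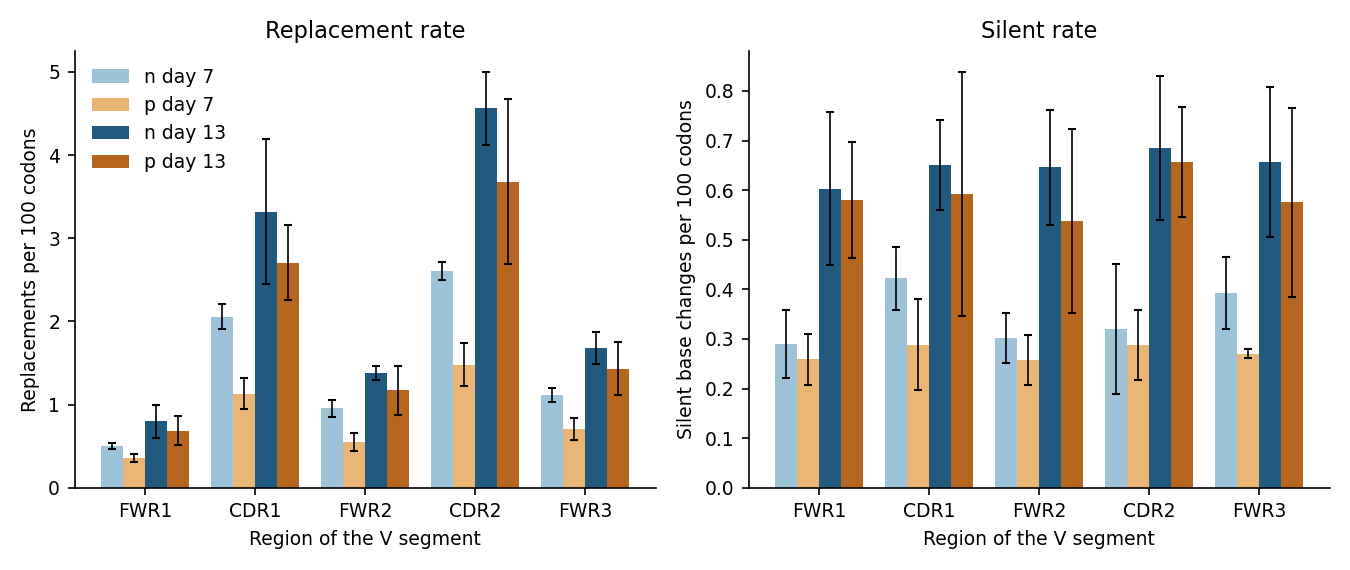
Replacement rate (left) and silent rate (right) per 100 codons in the 5 regions of the V segment. Bars are means of 4 libraries and error bars their SD, with 1 colour for each letter and day. CDR2 is the highest and FWR1 the lowest region for replacements in all 4 groups, and the silent bars differ mainly by day.

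Framework 3 was not uniform. Its first 10 codons, which follow CDR2 and which the wider Kabat definition assigns in part to CDR2, had 1.84 ± 0.68 replacements per 100 codons (SD, n = 16 libraries), against 1.02 ± 0.34 in the rest of the region, and the first 10 were higher in 16 of 16 libraries. Silent rates were 0.600 ± 0.309 and 0.428 ± 0.162. This split was chosen after the values along the V segment were seen and was not tested.

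Along the V segment of 47 IGHV1 genes whose CDR1 and CDR2 each have 8 codons (2759 rearrangements), replacements gathered at a few codons. Codon 59, the first of FWR3, had the highest rate at 6.80 replacements per 100 rearrangements. It was followed by codon 57 (6.37) and codon 31 (5.95), in CDR2 and CDR1, and by codons 58 (5.73) and 56 (5.21) of CDR2. Outside the CDRs, codon 66 of FWR3 reached 3.91, codon 63 reached 3.74 and codon 77 reached 3.47. Silent changes were highest at codon 10 of FWR1 with 3.18 and codon 38 of FWR2 with 2.54 per 100 rearrangements, followed by codons 59 and 63 with 2.20 and 1.93, which were also high in replacements.

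**Figure D3:**
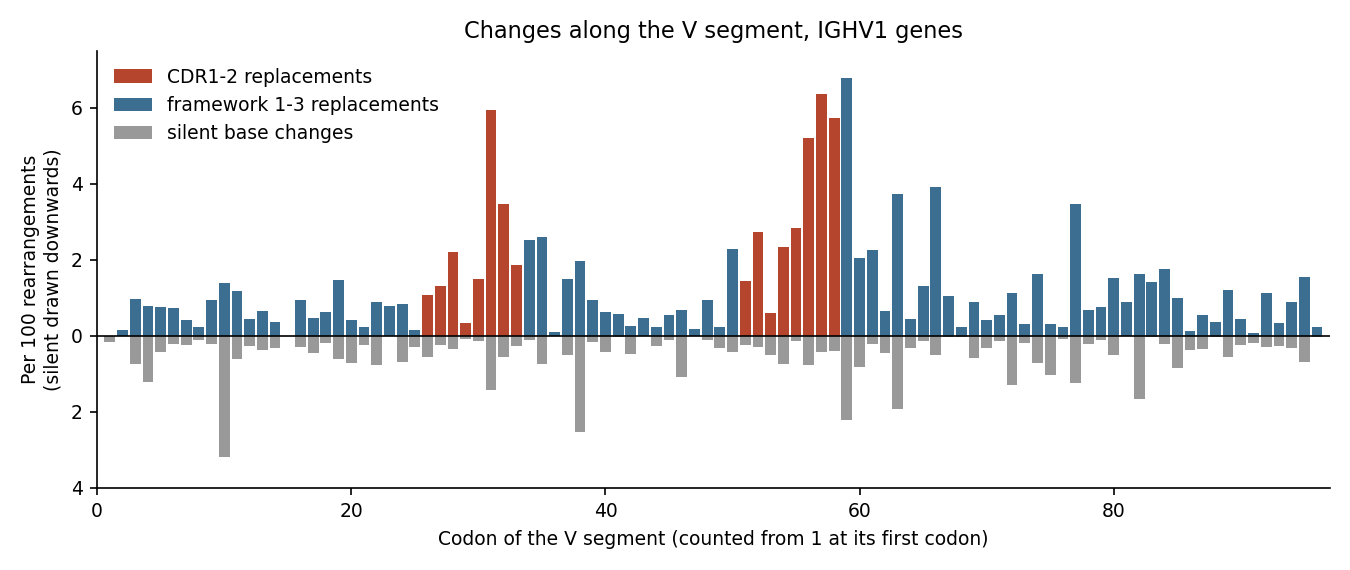
Replacements (upwards) and silent base changes (drawn downwards) per 100 rearrangements at each codon of the V segment, over 47 IGHV1 genes and the 16 libraries pooled. The highest replacement bars are codon 31 in CDR1, codons 56 to 58 in CDR2 and codon 59 at the start of FWR3.

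CDR rates were higher at day 13 than at day 7 for both letters. For n, the 4 day 7 libraries (replicates 1 to 4) had 2.37, 2.24, 2.32 and 2.41 CDR replacements per 100 codons, and the 4 day 13 libraries had 4.14, 3.24, 4.72 and 3.70. The groups did not overlap, and the means were 2.33 ± 0.07 and 3.95 ± 0.63 (SD, n = 4 each). For p, the day 7 libraries had 1.27, 1.58, 1.12 and 1.25, and the day 13 libraries had 3.38, 2.17, 3.53 and 3.72, with means of 1.30 ± 0.20 and 3.20 ± 0.70. These groups did not overlap either, and replicate 2, the library that shares most rearrangements with day 7, was the lowest at day 13.

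Framework and silent rates were ordered the same way. Framework replacement rates were 0.901 ± 0.030 at day 7 and 1.36 ± 0.14 at day 13 for n, and 0.569 ± 0.093 and 1.16 ± 0.26 for p. Silent rates over all 5 regions were 0.348 ± 0.049 and 0.643 ± 0.096 for n, and 0.269 ± 0.017 and 0.578 ± 0.144 for p. In each of these 6 comparisons of days the groups did not overlap, and the two-sided exact permutation test gave p = 0.0286, the smallest that 4 against 4 libraries allow. After adjustment over the 16 tests of days and letters each was 0.0508, above the threshold of 0.05. When every sequence weighed 1, 4 of the 6 pairs of groups overlapped, with exact permutation p = 0.0857 for the CDR rate and 0.114 for the framework rate of n, and 0.0857 for the framework rate and 0.0571 for the silent rate of p. With rearrangements of at least 2 sequences, the framework rates (exact permutation p = 0.0857) and silent rates (0.0571) of n overlapped.

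The day difference in the CDRs was 1.62 per 100 codons for n and 1.89 for p. Without the rearrangements seen on both days it was 1.96 for n and 2.72 for p, an alternative chosen after the data were seen, and the exact permutation p stayed at 0.0286 (adjusted 0.0571). Within p day 13 replicate 2, the 192 rearrangements also seen at day 7 had a CDR rate of 1.47, within the range of the p day 7 libraries. The 80 not seen at day 7 had 3.88.

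The CDR rate relative to the framework rate differed less between days. The CDR rate was 2.59 ± 0.16 times the framework rate at n day 7 and 2.90 ± 0.20 times at n day 13, and 2.32 ± 0.33 and 2.77 ± 0.36 times for p. On the log2 scale the difference between days was 0.16 for n (exact permutation p = 0.0571, adjusted 0.0914) and 0.26 for p (exact permutation p = 0.114, adjusted 0.166). Neither passed the test.

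At day 7, p libraries carried fewer changes than n libraries in CDR and framework alike. The difference p minus n was −1.03 per 100 codons for the CDR replacement rate, −0.332 for the framework rate and −0.079 for the silent rate, with no overlap between the 4 p and the 4 n libraries in any of the 3. Each had an exact permutation p of 0.0286 and an adjusted p of 0.0508. When every sequence weighed 1, the exact permutation p of the silent rate was 0.0571. With rearrangements of at least 2 sequences it was 0.229 for the silent rate and 0.0571 for the framework rate. These tests take the libraries as independent, though n and p libraries of the same number shared 38 to 48 rearrangements at day 7. Those of different numbers shared 0 to 2. With the n and p libraries of a number taken as pairs, the permutation p was 0.125 for each of the 3 differences, the smallest that 4 pairs allow. Without the rearrangements seen on both days the differences were −1.03, −0.328 and −0.088, and the silent rates of the letters then overlapped, with n day 7 replicate 1 at 0.283 and p day 7 replicate 1 at 0.289 (exact permutation p = 0.0571). The share of rearrangements that held a sequence with no change was 39.3% ± 3.2 in n and 56.6% ± 4.4 in p at day 7. A rearrangement with more sequences has more occasions to be counted here. Per library, n day 7 had on average 559.5 sequences in 418 rearrangements, and p day 7 had 794.5 in 468.5.

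At day 13 the letters overlapped. The difference p minus n was −0.751 for the CDR rate (exact permutation p = 0.20, adjusted 0.246) and −0.20 for the framework rate (exact permutation p = 0.229, adjusted 0.261). Without p day 13 replicate 2 they were −0.407 and −0.105. Without the rearrangements seen on both days the CDR means came to 4.28 ± 0.77 for n and 4.01 ± 0.23 for p, and the framework means to 1.46 ± 0.11 and 1.53 ± 0.22, so that the framework difference changed sign. The day difference in p exceeded that in n by 0.277 per 100 codons for the CDRs (permutation of the letters within each day, p = 0.695) and by 0.132 for the frameworks (p = 0.534, both adjusted 0.695), and neither passed the test. Leaving out 1 library moved the CDR value from 0.0402 (without n day 13 replicate 2) to 0.621 (without p day 13 replicate 2) and the framework value from 0.0162 (without p day 13 replicate 4) to 0.227 (without p day 13 replicate 2). Without rearrangements of both days the excess was 0.759 for the CDRs (permutation p = 0.178) and 0.401 for the frameworks (permutation p = 0.0265, adjusted 0.0531).

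Over the 16 libraries, IgG rearrangements carried more replacements than IgM rearrangements of the same library, though not in every library of p day 7. The isotype was read from the bases after the J segment, with 56 to 219 IgG and 80 to 427 IgM rearrangements per library. The CDR replacement rate was 3.74 per 100 codons in IgG and 2.19 in IgM, a difference of 1.55 ± 1.64 that was positive in 14 of 16 libraries (permutation test by sign flips, adjusted p = 0.000641). The framework rate was 1.33 and 0.823, also higher in IgG in 14 of 16 libraries (permutation test, adjusted p = 0.000641). Among rearrangements of at least 2 sequences only 9 libraries, 8 of them of day 7, held enough of both isotypes (20 rearrangements each), and the differences there were 0.523 for the CDRs and 0.216 for the frameworks. Over the same 9 libraries they were 0.464 and 0.220 with all rearrangements. The log2 ratio of CDR to framework rate differed by 0.04 and was higher in 8 of 16 libraries (permutation test, adjusted p = 0.652).

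By group, the CDR rate of n day 13 was 6.75 ± 0.81 in IgG and 2.81 ± 0.76 in IgM, a gap of 4.66, 3.30, 3.04 and 4.77 in replicates 1 to 4. For p day 13 the rates were 4.13 ± 1.13 and 2.59 ± 0.51, with gaps of 2.41, 0.405, 2.01 and 1.34, the smallest again in replicate 2. For n day 7 they were 2.75 ± 0.13 and 2.11 ± 0.13. For p day 7 they were 1.33 ± 0.23 and 1.26 ± 0.33, with gaps of 0.112, −0.499, −0.0101 and 0.684 that fell on both sides of 0. The gaps of n day 13 lay above those of each of the other 3 groups without overlap, and the difference between gaps was not tested.

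**Figure D4:**
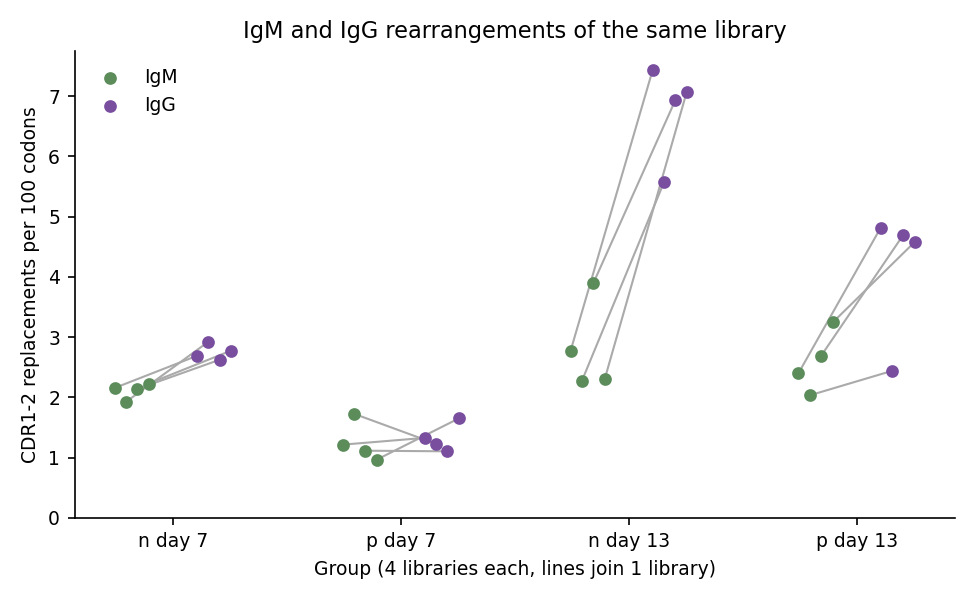
CDR1-2 replacement rate per 100 codons of IgM and IgG rearrangements, with a line joining the 2 values of a library. At n day 13 every IgG value lies above 5, every IgM value below 4. At p day 7 the lines run in both directions.

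CDRs exceeded frameworks in each V gene with at least 100 rearrangements (counted per library and summed). There were 16 such genes, and the ratio of the CDR to the framework rate, with the libraries pooled, ran from 1.35 to 4.05 with a median of 2.61. IGHV1-55 (chr12:115208137-115208527) had the largest ratio, with 3.67 CDR and 0.906 framework replacements per 100 codons. IGHV5-6 followed with 2.58 and 0.689, and IGHV5-4 with 2.83 and 0.808. The smallest ratios were those of IGHV8-12, the gene with the most rearrangements (356), at 1.19 and 0.880, and IGHV9-3 (chr12:114140692-114141122) at 1.00 and 0.690. In single libraries the CDR rate was the higher in 11 of 16 for IGHV8-12 and in 9 of 16 for IGHV9-3, against 16 of 16 for IGHV5-4, IGHV5-17 (chr12:113859149-113859442) and IGHV1-42 (chr12:114937154-114937544).

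**Figure D5:**
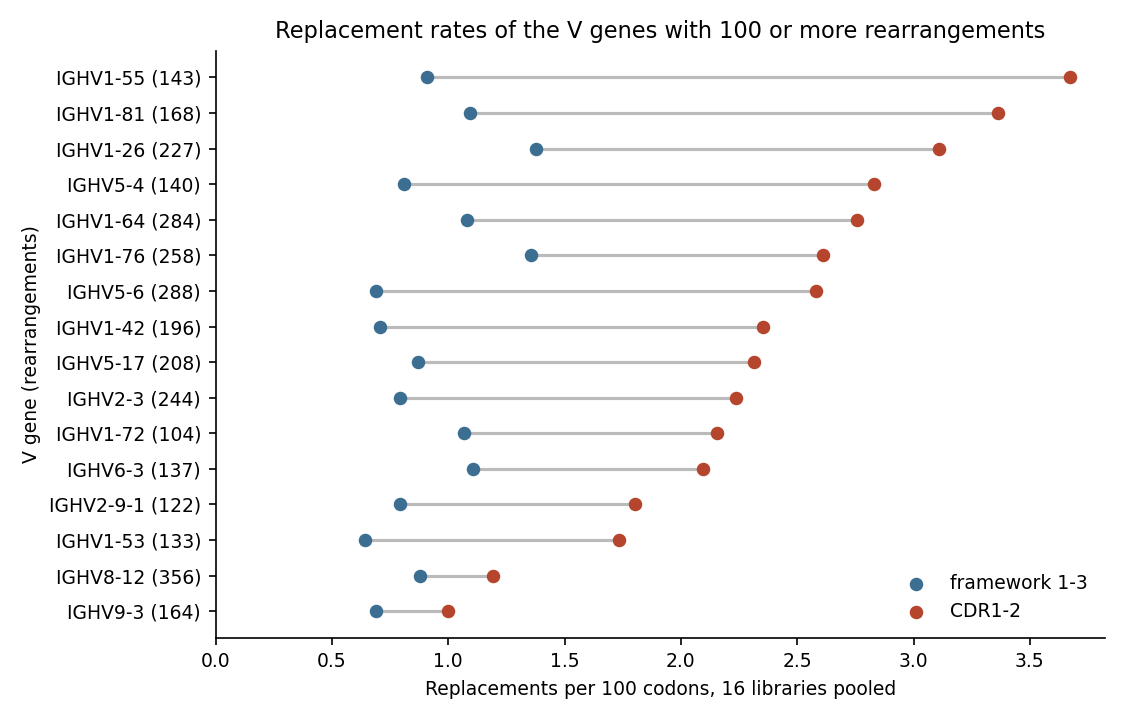
Replacements per 100 codons in framework 1-3 and in CDR1-2 of the 16 V genes with at least 100 rearrangements, with the 16 libraries pooled and the number of rearrangements in parentheses. The CDR point lies to the right of the framework point in every gene, and the gap is smallest in IGHV9-3 and IGHV8-12.

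Low CDR rates in IGHV8-12 were shared by both loops, with 1.45 replacements per 100 codons in CDR1 and 0.833 in CDR2. Its FWR3 rate, 1.11, lay above its CDR2 rate. In IGHV1-26 and IGHV1-55, by contrast, CDR2 had 4.78 and 4.90 replacements per 100 codons and CDR1 had 1.36 and 2.34. IGHV2-3 had the reverse order, with 3.05 in CDR1 and 1.34 in CDR2. Where in the V segment replacements gathered thus differed between genes, and these pooled values were not tested.

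Most of these genes showed the day difference. The pooled CDR rate was higher at day 13 in 14 of the 16 genes and the framework rate in 15. For IGHV1-26 the mean over libraries with at least 5 of its rearrangements was 1.31 ± 1.02 at day 7 (SD, n = 8) and 5.42 ± 1.70 at day 13 (n = 8). For IGHV1-81 (chr12:115920279-115920572) the means were 2.02 ± 1.52 and 5.30 ± 2.64, and for IGHV5-6 they were 1.79 ± 1.14 and 4.19 ± 2.83, with 8 libraries on each day. For IGHV1-76 (chr12:115847881-115848174) they were 2.22 ± 1.62 (n = 8) and 4.85 ± 3.32 (n = 7). The exceptions, named after their values were seen, were IGHV9-3, with pooled rates of 1.03 at day 7 and 0.932 at day 13, and IGHV1-53, with 1.86 and 1.51. The p rate was below the n rate in 15 of the 16 genes at day 7 and in 12 at day 13.

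Recurrent replacements are those with the same V gene, codon, germline residue and new residue in at least 3 distinct rearrangements, merged over libraries so that a rearrangement found in several libraries counts once. Of 4140 distinct replacements, 436 (10.5%) recurred, in 45 V genes. CDR1 held 81 and CDR2 held 119, while FWR1 held 30, FWR2 held 59 and FWR3 held 147. Of the 147 in FWR3, 67 fell in its first 10 codons.

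Per 100 germline codons that were covered, 13.3 recurrent replacements were found in the CDRs and 3.17 in the frameworks. Silent codon changes, counted the same way, gave 1.73 and 1.63 per 100, with 26 recurring in the CDRs and 121 in the frameworks. Per covered codon, recurrent silent changes thus differed far less between CDR and framework than recurrent replacements did, a difference that was not tested. Of the 436, 432 needed 1 base change, 403 were held by at least 3 lineages (rearrangements joined at 85% CDR3 identity), 435 were seen in at least 2 libraries, 351 under both letters and 353 on both days.

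Asparagine in place of serine was the most frequent recurrent replacement. It made up 67 of the 436, 42 of them in the CDRs. Serine to threonine followed with 40 (29 in the CDRs), glycine to aspartate with 30 (24) and tyrosine to phenylalanine with 24 (11). All 17 recurrent lysine to arginine replacements, all 12 methionine to isoleucine and 16 of 17 lysine to asparagine replacements were framework changes. The lysine codons AAG and AAA made up 0.506% and 0.532% of CDR codons, against 7.20% and 1.44% of framework codons. The methionine codon ATG made up 0.520% and 2.36%. Replacements of any kind per 100 codons were 1.54 in the CDRs and 1.51 in the frameworks for AAG. They were 1.33 and 1.08 for AAA, and 2.33 and 1.47 for ATG.

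Replacements are written below as germline residue, codon and new residue, so that S31N is serine 31 to asparagine. S31N, in the AGC codon printed above, recurred in CDR1 of 4 V genes among those named. In IGHV5-6 it was held by 20 of 228 rearrangements (8.77%), from 17 lineages and 11 libraries. In IGHV2-3 it was held by 15 of 196 (7.65%), in IGHV2-2 by 12 of 65 (18.5%) and in IGHV1-64 by 11 of 233 (4.72%). The comparable S30N of IGHV8-12 was held by 13 of 286 (4.55%). For IGHV5-6 the share was 3.57% at day 7 (7 of 196, 95% exact binomial interval 1.45% to 7.22%) and 14.4% at day 13 (13 of 90, 7.92% to 23.4%), while for IGHV2-2 it was 17.4% on both days. Intervals cover counting error only, and no named replacement was tested between days.

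Codon 57, the last but 1 of CDR2 in these genes, was changed from glycine to aspartate (G57D) in 13 of 202 rearrangements of IGHV1-26 (6.44%) and in 11 of 161 of IGHV1-42 (6.83%). The AGT codon 56 of IGHV5-4 gave S56T and S56N, each in 9 of 115 rearrangements (7.83%). IGHV2-3 S56N was held by 10 of 200 (5%), IGHV1-55 S57T by 9 of 128 (7.03%) and IGHV1-64 T58S by 10 of 237 (4.22%).

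Some framework codons were replaced as often as these CDR codons. In IGHV1-26, serine 59, the first residue of FWR3, became asparagine (S59N) in 21 of 202 rearrangements and threonine (S59T) in 21 (10.4% each). The share with S59N was 3.88% at day 7 (5 of 129, 1.27% to 8.81%) and 16.3% at day 13 (16 of 98, 9.63% to 25.2%), and that with S59T was 4.65% and 15.3%. These are shares of pooled rearrangements, and S59N came from 12 lineages. S37N in FWR2 of IGHV8-12 was held by 16 of 297 (5.39%), and S66N in FWR3 of IGHV1-64 by 15 of 237 (6.33%), both at AGC codons. The other named framework replacements were IGHV2-3 V50I (11 of 200), IGHV2-3 S35N (10 of 200), IGHV1-64 M34I (10 of 236) and IGHV1-64 S66T (10 of 237). Of the 20 named replacements, 13 had a higher share at day 13, as did 276 of all 436 recurrent replacements.

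IGHV2-6-1 I24V, in FWR1, was singled out after its values were seen, because it was held by 17 of 17 rearrangements in 9 libraries. Whether it is a difference between these mice and the germline sequence used for the alignment was not tested. Leaving it out changed no rate comparison's side of the threshold.

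Serine codons written AGC or AGT stood out from other codons. They made up 12.1% of CDR codons and 4.21% of framework codons, and 31.5% of CDR replacements and 13.3% of framework replacements fell on them. They were replaced at 6.29 per 100 in the CDRs and 2.88 in the frameworks. Serine codons of the other family, which begin with TC, were replaced at 0.113 per 100 in the CDRs and 0.237 in the frameworks. The codon AGC alone reached 9.07 per 100 in the CDRs, against 4.40 for AGT. Of the recurrent replacements, 86 of 200 in the CDRs and 46 of 236 in the frameworks started from AGC or AGT.

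The CDR rate was the higher both in AGC and AGT codons and in all other codons. The mix within the first class differed, with AGC at 4.88% of CDR and 3.42% of framework codons. AGT made up 7.21% and 0.791%. How much of the CDR excess goes with codon make-up was not tested. In a comparison chosen after the data were seen, AGC and AGT codons were replaced at 6.80 ± 2.53 per 100 in the CDRs and 3.25 ± 1.32 in the frameworks (SD, n = 16 libraries), and all other codons at 2.13 ± 0.96 and 0.899 ± 0.300. The CDR rate was higher in 16 of 16 libraries for both classes, with median ratios of 2.06 and 2.22.

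A second comparison of this kind split the codons by 4 motifs of 4 bases that AID is known to favour. They are AGCA with its reverse complement TGCT, and AGCT and also TGCA, each of which reads alike on both strands. The set thus covers both strands, and AGCA and AGCT begin with AGC, so this class of codons shares members with the class above. Codons overlapping a motif made up 10.9% of CDR codons and 19.7% of framework codons, so these 4 motifs were the scarcer in the CDRs. No other motifs were counted, so these shares do not describe all sequences that AID favours. The codon AGC, whatever base followed it, made up 4.88% of CDR and 3.42% of framework codons. Overlapping codons were replaced at 5.90 ± 2.03 per 100 in the CDRs and 1.59 ± 0.55 in the frameworks, other codons at 2.31 ± 1.03 and 0.849 ± 0.291. The CDR rate was again higher in 16 of 16 libraries for both, with median ratios of 3.71 and 2.55. Each of the 4 comparisons had a permutation p of 3.05e-05, the smallest for 16 libraries, also after adjustment over the 4. These tests take the libraries as independent, though n and p libraries of the same day and number shared rearrangements.

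Sequences with an out-of-frame CDR3 gave a second set of values. Such rearrangements cannot encode a working heavy chain if the frame was read correctly. There were 345 sequences from 309 rearrangements over the 16 libraries. Their CDR replacement rate was 3.26 per 100 codons and their framework rate 1.54, against 2.41 and 0.916 for in-frame rearrangements pooled the same way. Of the out-of-frame rearrangements 50.2% came from day 13, against 35.3% of those in frame, so the pools differ in their mix of days. At day 7 the CDR rate was 1.58 out of frame and 1.77 in frame, and the framework rate 0.813 and 0.722. At day 13 the CDR rates were 4.94 and 3.58 and the framework rates 2.26 and 1.27, so only at day 13 was the CDR rate higher out of frame. The ratio of replacement to silent changes was 5.37 in the CDRs and 3.16 in the frameworks, against 5.55 and 2.26 in frame. In the frameworks it was 2.82 out of frame and 2.39 in frame at day 7, and 3.30 and 2.13 at day 13. In the frameworks 75.9% of the out-of-frame changes were replacements, against 69.3% in frame and 76.7% from the germline codons. In the CDRs the share was 84.3% out of frame, against 84.7% in frame and 78.2% from the germline codons. The out-of-frame CDR values rest on 36 silent changes, and the frame was derived here rather than deposited. Differences between out-of-frame and in-frame rearrangements were not tested.

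New sites for N-linked glycosylation, an asparagine followed by any residue but proline and then by serine or threonine, were gained by few rearrangements. The mean share of rearrangements with a gained site in the 5 regions was 3.15% ± 0.67 at n day 7, 1.41% ± 0.28 at p day 7, 4.55% ± 2.32 at n day 13 and 2.39% ± 1.25 at p day 13 (SD, n = 4). At day 7 the n libraries, from 2.54% to 4.03%, lay above the p libraries, from 1.17% to 1.78%. At day 13 the libraries overlapped, and these shares were not tested. Counting residues gained and lost, replacements that made the charge more positive were 8.20% of CDR and 10.2% of framework replacements. Those that made it more negative were 13.0% and 13.7%.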

How the data were processed

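The deposited bulk table gives 1 heavy-chain sequence per row with V and J calls, aligned sequence and germline, and the percent V identity that the authors deposited, per the file headers. Region limits were taken from the deposited framework and CDR start and end columns, which count bases. Every row is marked free of stop codons. The aligner, filters and read numbers are not given in the sources used here, so the depth behind a sequence is unknown. The build mm10 is named in the submitters' processing notes, and coordinates come from RefSeq's GRCm38.p6, in which 92 of 93 V genes matched.

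Here the CDR3 was read from the end of framework 3 to the J tryptophan, and 8150 sequences (95.7%) were in frame, of which 16 with gaps in the V alignment were left out. Codons were translated from the aligned bases, since the deposited residue alignments (8069 mismatches over the whole V segment) give no silent changes, and codons with N or a stop were skipped. Changes were averaged over the sequences of a rearrangement, and a library's rate is summed changes over summed codons, per 100. Isotypes came from the 20 bases after J with at most 1 mismatch, against the most frequent such stretches in the data, named by their translated first residues, since no constant region reference was used. In all 12 sequences had no isotype. Samples were grouped by their titles.

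Tests were sign-flip permutation tests within libraries and exact permutation tests between groups of 4 (scipy 1.17.1, numpy 2.4.6, pandas 2.3.3, Python 3.11.15), with Benjamini-Hochberg adjustment within each family of 3, 16, 2, 3 and 4 tests. Counting and tests were checked on simulated data. Named V genes were chosen from the 12 with the most rearrangements (IGHV1-53 and IGHV2-6-1 were named after their values were seen), and named replacements were the 12 in CDRs and 8 in frameworks held by the most lineages, seen in at least 3 lineages and 2 libraries and in at most 50% of a V gene's rearrangements, which also brought in IGHV2-2. The regions and lists were chosen with earlier results of these data known, and the counts of recurrent silent changes and glycosylation sites were added after the values were seen. The single-cell samples were not analysed here. Alternatives weighted sequences, joined lineages, counted per site, required 2 sequences, set fixed differences apart, left out libraries and left out rearrangements of both days.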

Additional observations from a re-analysis of the deposited data

How the results depend on the processing

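Of the 24 tested differences, the 16 of days and letters missed the threshold throughout, and all 24 kept their direction and their side of the threshold of 0.05 with lineages in place of rearrangements and with rates per site. With every sequence weighing 1, 23 did, and the silent difference between CDR and framework was 0.017 (permutation test, adjusted p = 0.148). With at least 2 sequences per rearrangement 21 did: the silent difference was 0.064 (permutation test, adjusted p = 0.24), and p minus n at day 13 changed sign for the framework rate (0.133) and the silent rate (0.102). Without rearrangements of both days 23 did, and p minus n at day 13 was 0.073 for the framework rate. The cause of these changes was not tested. Leaving out 1 library at a time, the replacement difference ranged from 1.60 to 1.78, the silent difference from 0.0270 to 0.0385 (p from 0.0323 to 0.0850), the silent rate of p minus n at day 13 from −0.112 to 0.00105, reaching its highest without p day 13 replicate 2, and the log2 ratio of IgG minus IgM from −0.0017 to 0.0881, lowest without p day 7 replicate 4. Groups of 4 against 3 allow no exact p below 0.0571, so those fits say nothing about the group calls. Setting apart changes held by over 50% of a V gene with at least 20 rearrangements left out 0 changes. Recurrent replacements numbered 136 (71 in CDRs) at 5 or more rearrangements, 62 (31) among rearrangements with at least 2 sequences, and 380 (172) without those of both days. Libraries with the same number were not treated as pairs in the main tests. In V gene use not every pair deviated together. Deviations of V gene shares from the group means over 93 V genes correlated by 0.253, 0.262, 0.442 and −0.062 for numbers 1 to 4 at day 7. At day 13 the correlations were −0.040 to 0.099. On the 2 days, 3 of 4 and 2 of 4 n libraries correlated best with the p library of their own number. In shared rearrangements the pairs of day 7 stood out. There the n and p libraries of numbers 1 to 4 shared 47, 38, 47 and 48, against 0 to 2 between different numbers. At day 13 the pairs shared 4, 5, 11 and 18. Other numbers of the same day shared 0 to 7 between n and p and 0 to 19 within a letter. The most within a letter was between p day 13 replicates 2 and 4. The unpaired tests take no account of this sharing. With the number as a replicate block, p minus n of the CDR rate at day 7 was −1.03 with an exact p of 0.125, the smallest that 4 pairs allow, so no blocked difference of p minus n could pass the threshold. With n and p libraries of a number averaged, the CDR excess had a permutation p of 0.00781 (8 units).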
